A study of Mus musculus with 5 samples.

Results

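The 9 genes Traf6, Pml, H2-Aa, Itgb2, Ptprc, Ctss, Cd68, Fyb and Ikzf1 act in innate signalling, antigen presentation and leukocytes, and every cassette exon listed for them was taken. A cassette exon is an exon that a transcript either holds or skips. The genes had 15 such exons among 6616 in the study, and 14 of the 15 were present in all 6 deposited tables. The file itself named the gene for 8 of the exons, and 7 were traced to their gene through the lengths of exon and introns in mouse annotation. RNA was sequenced from the left ventricle of C57BL/6 mice. STZ mice (3 samples) were injected intraperitoneally from 8 weeks of age, once a day for 5 days, with streptozotocin at 70 mg/kg in citrate buffer, and Control mice (2 samples) got the buffer alone. Both were sampled at 12 weeks of age. Streptozotocin is toxic to insulin-producing pancreatic cells, and its injection is a chemical model of type I diabetes. The labels do not say that each sample was a separate animal, so p-values measure the spread between these samples, which may be technical.

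TRAF6 is a ubiquitin ligase that relays signals from Toll-like and interleukin-1 receptors to NF-kappaB and MAP kinases. PML is an interferon-inducible protein that builds PML nuclear bodies, and its splice forms differ in the parts they join to a shared amino-terminal part. The other 7 genes are made chiefly by blood-derived cells: H2-Aa is the alpha chain of an MHC class II molecule that presents peptides to helper T cells, Itgb2 the beta-2 integrin of leukocyte adhesion, Ptprc the phosphatase CD45 of all nucleated blood cells, Ctss a lysosomal protease that trims the class II chaperone, Cd68 a macrophage lysosomal glycoprotein, Fyb an adaptor of T cells and platelets, and Ikzf1 a lymphoid transcription factor.

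Exon use is given as Psi, the authors' estimate of the fraction of transcripts that hold an exon. The reads of an exon fall into 4 classes, which fit the including isoform alone, the skipping isoform alone, both, or neither. Reads of the first 2 classes tell the isoforms apart and are called informative. Tests of Psi were kept to exons with a minimum of 10 informative reads in each library, which held for 10 of the 15 exons and for 4769 in all. The median tested exon had 118, 102 and 94 informative reads in STZ A, B and C, against 154 and 192 in Control A and B, and several exons of these 9 genes had far fewer. The libraries carry codes that match no sample title, so the 3 on one side of every table were taken as STZ and the 2 on the other as Control from group sizes alone. The codes also form 2 series that split as the groups do, so treatment and any difference between the series cannot be told apart.

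Of the 10 tested exons, 2 fell in STZ hearts and none rose at an adjusted p under 0.05 (limma, Benjamini-Hochberg over all tested exons): the exon of Traf6, which has a single one here, and the 138-nt exon of Pml. Across all tested exons, 713 or 15% changed, 10.1% falling and 4.84% rising, and 485 or 10.2% changed by at least 0.10. At an unadjusted p under 0.05, 4 of the 10 exons passed, all lower in STZ, beside 32% of all tested exons. The same 4, one each of Traf6 and Itgb2 and a pair of Pml, had STZ and Control libraries that did not overlap, beside 42.9% of all tested exons. A model of the informative reads themselves called 2 of the 10 and 21% of all. The median difference in Psi, STZ minus Control, was -0.0175 over the 10 exons and -0.01 over all. By size of the fall, the Traf6 exon ranked 2 and the Pml exon 14 among the 4769.

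**Figure D1:**
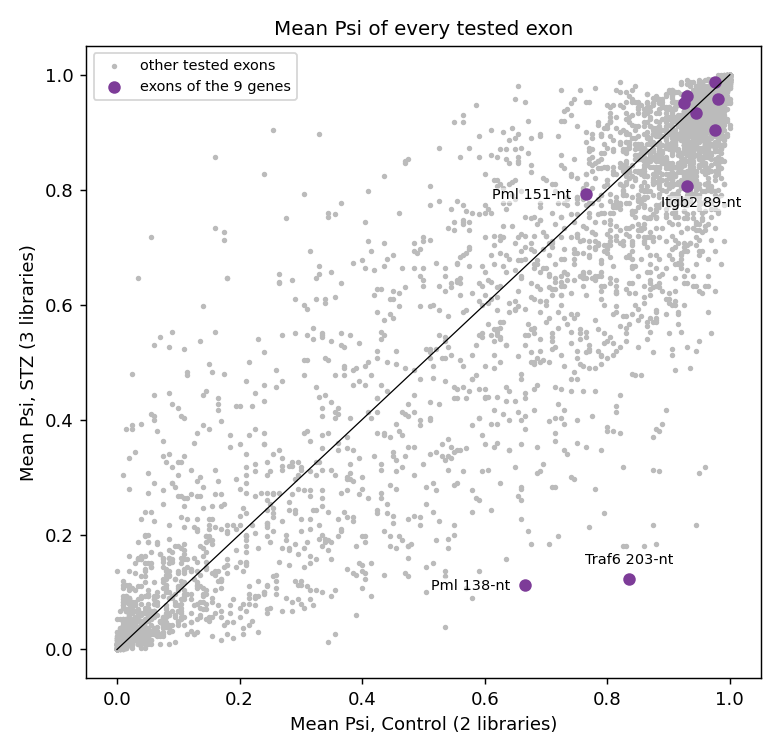
Mean Psi of the 4769 tested exons in the 3 STZ libraries (y axis) against the 2 Control libraries (x axis), with the 10 tested exons of the 9 genes in purple and a line where the groups are equal. The Traf6 and Pml 138-nt exons lie far below the line, and the other 8 lie nearer to it.

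The 138-nt exon of Pml lies on the minus strand at chr9:58078298-58078435 (mm9). In the GENCODE annotation of GRCm38 it is coding exon 5 of 9 of transcript Pml-201 and is skipped in 2 coding transcripts. Its sequence is shown because skipping it leaves the reading frame whole. The first line below gives the exon in capitals between 30 bases of each neighbouring exon, from Pml-201, and the second the same neighbours joined as in Pml-202. In GRCm38 the exon is at chr9:58230491-58230628, minus strand.
Pml inclusion: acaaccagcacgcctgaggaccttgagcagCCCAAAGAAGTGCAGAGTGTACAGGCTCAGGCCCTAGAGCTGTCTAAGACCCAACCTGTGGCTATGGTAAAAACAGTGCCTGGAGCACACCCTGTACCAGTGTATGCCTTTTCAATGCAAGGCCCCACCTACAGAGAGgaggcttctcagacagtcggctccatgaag
Pml skipping: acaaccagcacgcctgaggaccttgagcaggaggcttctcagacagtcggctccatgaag
The exon begins at codon position 1 and takes out 46 codons, and the skipping reading frame has 0 stop codons before its end.

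Psi of the Pml 138-nt exon was 0.15, 0.13 and 0.06 in STZ A, B and C, against 0.66 and 0.67 in Control A and B. Every STZ library lay far under both Control libraries. The mean was 0.113 ± 0.0473 in STZ hearts and 0.665 ± 0.00707 in Control hearts (SD, n = 3 and n = 2). On the logit scale the difference was -2.81 ± 0.37 (SE, adjusted p = 0.0271, limma). Counts were low. Reads of the including isoform alone numbered 10, 5 and 3 in the STZ libraries and 62 and 75 in the Control libraries. Reads of the skipping isoform alone numbered 20, 10 and 15 in STZ and 9 and 12 in Control. Summed over libraries, including and skipping reads were 18 and 45 in STZ, against 137 and 21 in Control, so most informative reads skipped the exon in STZ and held it in Control.

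Including reads were 33.3% of the informative reads in STZ A (95% Wilson interval 19.2 to 51.2%), 33.3% in STZ B (15.2 to 58.3%) and 16.7% in STZ C (5.84 to 39.2%). In Control A they were 87.3% (77.6 to 93.2%) and in Control B 86.2% (77.4 to 91.9%). No STZ interval reached a Control interval; intervals of this kind cover counting error only. These shares stand above Psi, since more read positions fit an included exon than a skipping junction and MISO allows for that. The read model gave an adjusted p of 1.52e-05, and in the authors' deposited table the difference (Control minus STZ) was 0.51 to 0.61 over the 6 comparisons, each with a Bayes factor of at least 10. The limma call was lost without STZ A (adjusted p = 0.0582), STZ B (0.0827), Control A (0.122) or Control B (0.132), and kept without STZ C (0.0175).

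The other 2 Pml exons are coding as well. The 464-nt exon, exon 2 of 9 at chr9:58094782-58095245, had Psi of 0.89, 0.94 and 0.88 in STZ, against 0.97 and 0.98 in Control. The groups did not overlap, but the difference in means of -0.0717 had an adjusted p of 0.0689 (limma) and 0.0534 in the read model. It rested on 2, 1 and 4 skipping reads in STZ and 0 and 0 in Control, beside 129 to 169 including reads in STZ and 239 to 240 in Control. No annotated transcript skips this exon. The 151-nt exon, exon 8 of 9 at chr9:58069522-58069672, had Psi of 0.88, 0.63 and 0.87 in STZ and 0.88 and 0.65 in Control. Its groups overlapped and spread as widely within as between (adjusted p = 0.97), on 0 to 5 skipping reads a library.

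The Traf6 exon lies on the plus strand at chr2:101520982-101521184 (mm9), between introns of 2204 and 3451 nt. It is exon 2 of 8 of transcript Traf6-201 and holds 0 coding bases: it is 5′ untranslated sequence, and the start codon begins 22 nt into the next exon. The annotated transcript that skips it, Traf6-202, is listed as noncoding. Psi was 0.13, 0.17 and 0.07 in STZ A, B and C, against 0.76 and 0.91 in Control A and B. Here too every STZ library lay far under both Control libraries. The mean was 0.123 ± 0.0503 in STZ hearts and 0.835 ± 0.106 in Control hearts (SD, n = 3 and n = 2). The logit difference was -3.76 ± 0.53 (SE, adjusted p = 0.0291, limma).

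Reads of the including isoform alone numbered 15, 14 and 7 in the STZ libraries and 54 and 115 in the Control libraries. Reads of the skipping isoform alone numbered 53, 45 and 53 in STZ and 9 and 6 in Control. Informative reads were close in number between most libraries, 68, 59 and 60 in STZ and 63 and 121 in Control, while the isoform they fitted differed. Including reads were 22.1% of them in STZ A (13.8 to 33.3%), 23.7% in STZ B (14.7 to 36.0%) and 11.7% in STZ C (5.77 to 22.2%). In Control A they were 85.7% (75.0 to 92.3%) and in Control B 95% (89.6 to 97.7%), with no interval shared between the groups. Reads that fit both isoforms numbered 124, 92 and 114 in STZ and 92 and 115 in Control.

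The read model gave the Traf6 exon an adjusted p of 3.59e-08, and in the authors' deposited table the difference (Control minus STZ) was 0.59 to 0.84 over the 6 comparisons, each with a Bayes factor of at least 10. Of all exons present in every table, 204 or 3.22% had a difference of at least 0.2 with 1 sign and such a Bayes factor in all 6 comparisons. Leaving out any 1 library kept the fall between -0.637 and -0.787 in Psi, but the limma call was lost each time: the adjusted p was 0.0872, 0.0793 and 0.0835 without STZ A, B and C, and 0.0718 and 0.105 without Control A and B.

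**Figure D2:**
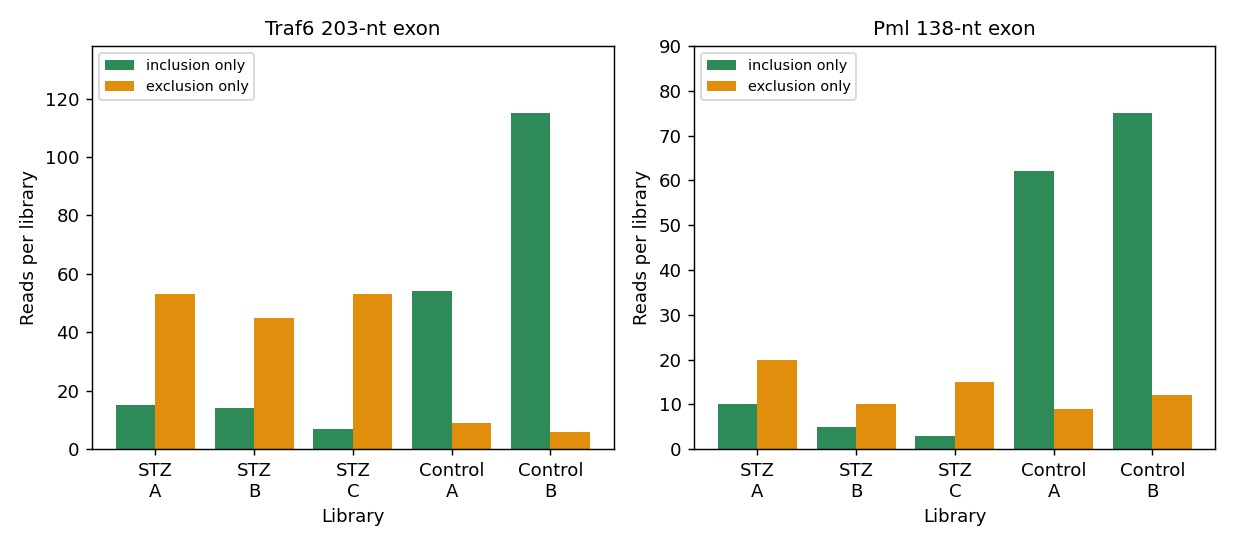
Reads per library of the Traf6 and Pml 138-nt exons (y axis, raw counts) in the 2 informative classes, including isoform alone and skipping isoform alone, for STZ A to C and then Control A and B. Skipping reads outnumber including reads in all 3 STZ libraries and are fewer in both Control libraries, for both exons.

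Psi over the 5 libraries resembled that of the Traf6 exon most in exons of Morf4l2, Zfp266, Arvcf, Dpp7 and Fam171a1, by Euclidean distance among tested exons of other genes. The nearest, a 75-nt Morf4l2 exon at a distance of 0.152, had Psi of 0.20, 0.16 and 0.18 in STZ, against 0.81 and 0.85 in Control. The 155-nt Zfp266 exon was at 0.169, the 120-nt Arvcf exon at 0.172, the 119-nt Dpp7 exon at 0.247 and the 115-nt Fam171a1 exon at 0.257. All 5 were called lower (adjusted p between 0.00397 and 0.0327, limma), which their choice by likeness to a fallen exon largely fixes.

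Among the leukocyte genes with tested exons, no call was made by limma or by the read model, beside 15% and 21% of all tested exons. With so few exons tested, having no call does not set these genes apart. At an unadjusted p under 0.05, 1 exon passed, beside 32% of all tested exons. The 89-nt exon of Itgb2, coding exon 3 of 16 at chr10:77005143-77005231, was that one. Its Psi was 0.84, 0.84 and 0.74 in STZ, against 0.95 and 0.91 in Control. The groups did not overlap, with means of 0.807 ± 0.0577 and 0.93 ± 0.0283, but the adjusted p was 0.103 (limma). Its skipping reads numbered 2, 1 and 3 in STZ and 0 and 0 in Control, beside 60, 16 and 30 including reads in STZ and 20 and 51 in Control. A handful of reads thus carried the difference.

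The 249-nt exon of H2-Aa, coding exon 2 of 5 at chr17:34421233-34421481, was held by nearly all transcripts. Its Psi was 0.94, 0.94 and 0.92 in STZ and 0.93 and 0.96 in Control, with overlapping groups (adjusted p = 0.597, limma). Ctss had a pair of exon forms, 127 and 124 nt, that end together at chr3:95333482, start 3 nt apart and share most reads. Psi of the 127-nt form was 0.94, 0.95 and 0.98 in STZ and 0.99 and 0.97 in Control, and that of the 124-nt form 0.98, 0.98 and 1 in STZ and 0.98 and 0.97 in Control. Cd68 had a pair likewise, 461 and 434 nt, both ending at chr11:69479438. Their Psi was 0.97, 0.93 and 0.99 in STZ against 0.92 and 0.94 in Control for the 461-nt form, and 0.95, 0.92 and 0.98 against 0.92 and 0.93 for the 434-nt form. The adjusted p of these 4 forms was 0.409 to 0.527 (limma), on 0 to 2 skipping reads a library. Psi here sets each form against skipping alone, so use of a form against its partner was not measured.

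**Figure D3:**
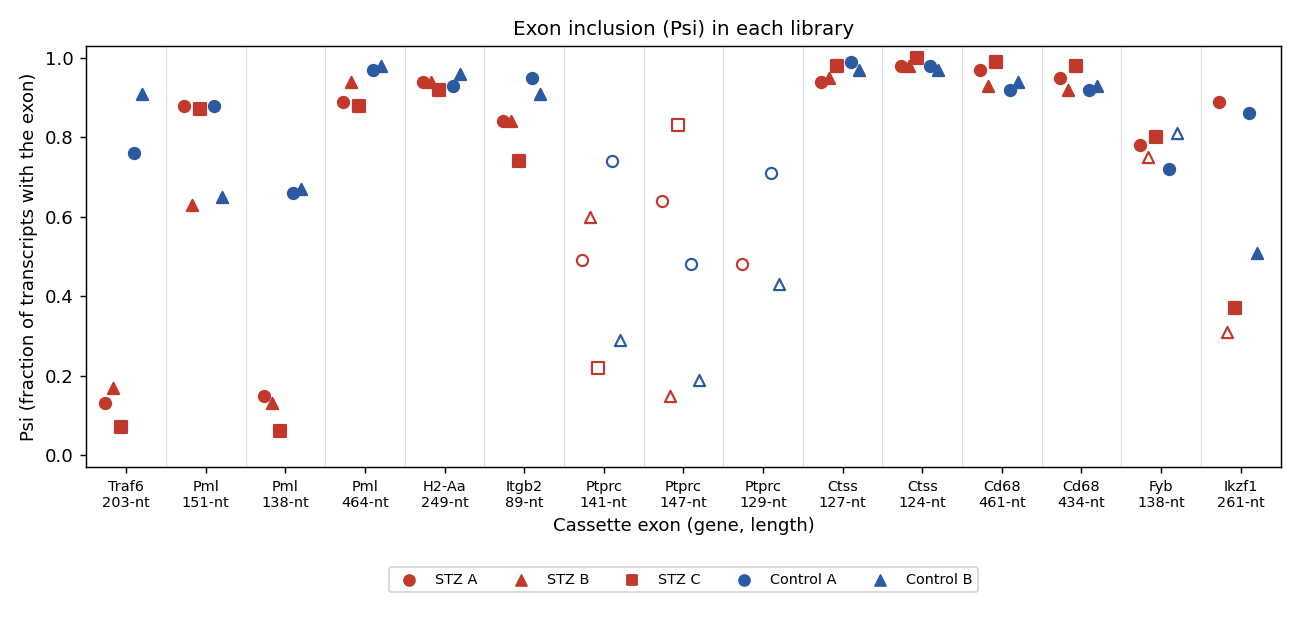
Psi (y axis, from 0 to 1) of the member exons in each library, STZ left of Control, 1 point a library, hollow where that library had fewer than 10 informative reads. The groups stand widely apart for Traf6 and Pml 138-nt and lie close or overlap for the other tested exons.

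The other 5 exons did not reach 10 informative reads in every library. The 138-nt exon of Fyb, coding exon 11 of 18 at chr15:6594762-6594899, had 17, 5 and 12 including reads in STZ, 14 and 9 in Control, and 0 skipping reads in every library. Its Psi was 0.78, 0.75 and 0.80 in STZ and 0.72 and 0.81 in Control. The 261-nt exon of Ikzf1, coding exon 4 of 8 of transcript Ikzf1-204 at chr11:11648314-11648574, is skipped in 3 coding transcripts. It had 12, 3 and 9 including reads in STZ and 12 and 13 in Control, and 0, 2 and 3 skipping reads in STZ and 0 and 3 in Control. Its Psi of 0.89, 0.31 and 0.37 in STZ and 0.86 and 0.51 in Control swung by as much within a group as between groups. With a minimum of 5 informative reads, neither passed: the difference in Psi, STZ minus Control, was 0.0117 for Fyb (adjusted p = 0.958, limma) and -0.162 for Ikzf1 (adjusted p = 0.794).

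The 3 Ptprc exons belong to the cluster of variable exons that sets the CD45 isoforms of lymphocytes. The 141-nt exon at chr1:140014331-140014471 had 1, 1 and 0 including reads in STZ, 3 and 0 in Control, and no skipping read in any library. The 147-nt exon at chr1:140016597-140016743 had 0 informative reads in every library, and yet its deposited Psi was 0.64, 0.15 and 0.83 in STZ and 0.48 and 0.19 in Control. In the authors' deposited table the Bayes factor of that exon reached 1230 in 1 of 6 comparisons, where no read told its isoforms apart. The 129-nt exon at chr1:140019033-140019161 was listed for STZ A and the Control libraries alone, with 0 including reads in STZ A and 5 and 3 in Control A and B. With no minimum of reads, the 141-nt and 147-nt exons did not pass (adjusted p = 0.862 and 0.704, limma), on at most 3 informative reads a library. A difference in CD45 isoform use was not detectable with so few informative reads. The 141-nt exon had 43 to 124 reads of all classes a library in STZ and 201 to 237 in Control. Of these, a mean of 98.2% in STZ and 98.1% in Control fitted neither isoform, and at the 147-nt exon 99.4% and 99.1% did.

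Event reads give a rough measure of how much transcript covers an exon: here, the reads that fit at least 1 isoform, given as RPM (reads per 1000000 such reads of the library) and tested as log2(RPM + 0.5). For genes with several events, the one with the most reads stands for the gene. Of the 9 genes, 8 had an event present in all tables with enough such reads. Ptprc did not: its 141-nt and 147-nt events had too few, and its 129-nt event was not in all tables. Of the 8 genes, 2 passed limma, H2-Aa and Pml, both lower in STZ. These were also the 2 whose groups did not overlap. Reads differed widely in this study: 47.2% of 5901 events passed, and 48.8% of 4087 genes, 30% lower and 18.8% higher, while 68.6% had groups that did not overlap. Among the called events, 1064 were higher and 1720 lower, against 1385 and 1442 when libraries were scaled by the median of ratios. The median log2 difference was 0.29 over the 8 genes and -0.17 over all genes. Over all events it was -0.17, and -0.01 by the median of ratios. In bulk tissue, fewer cells of a type and less RNA per cell cannot be told apart.

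H2-Aa had 31.5, 25.8 and 81.0 RPM in STZ A, B and C, against 329 and 195 in Control A and B. Its highest STZ library lay well under the lower Control library. The means were 46.1 ± 30.4 and 262 ± 94.6 RPM (SD, n = 3 and n = 2), and the log2 difference was -2.63 ± 0.45 (SE, adjusted p = 0.00194, limma). H2-Aa was called under every setting and with any 1 library left out, at log2 differences of -2.26 to -3.13. These reads are many enough to count: 239, 198 and 546 reads in STZ and 3037 and 2231 in Control fitted at least 1 isoform. Cd74, the class II chaperone that CTSS trims, moved likewise at its 192-nt exon, with 6.32, 4.69 and 14.5 RPM in STZ against 56.1 and 31.8 in Control (log2 difference -2.40 ± 0.44 SE, adjusted p = 0.00285, limma). H2-K1, a class I heavy chain whose reads near-identical class I genes may share, rose to a mean of 1730 RPM in STZ, against 680 in Control (adjusted p = 0.00752, and 0.0847 without Control B), and Ctsl, another lysosomal protease, to 1040 against 377 (adjusted p = 0.000139, limma).

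The promoter of H2-Aa is shown because class II genes share control elements there, among them the Y box. Below are the 150 bases before the start of H2-Aa in RefSeq (GRCm38.p6, chr17:34287824-34287973, minus strand), with the letters CTGATTGG in capitals, 51 to 44 bases before the start.
H2-Aa promoter: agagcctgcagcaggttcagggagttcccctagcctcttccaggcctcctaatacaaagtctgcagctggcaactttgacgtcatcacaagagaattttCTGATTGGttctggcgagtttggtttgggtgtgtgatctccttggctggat
A search of both strands for CTGATTGG in the 250 bases before the start found it in 1258 of 32851 promoters, or 3.83%. Of the 8 member genes with a promoter entry, 2 held it, H2-Aa and Fyb. In Fyb it lay on the other strand, 52 to 45 bases before the start. H2-Eb1, a class II beta chain, held it 62 to 55 bases before its start. A match of these letters is a description and does not show that a factor binds there.

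Pml stood at 78.4, 84.9 and 104 RPM in STZ and 136 and 114 in Control at its 151-nt exon, the event with the most reads. The means were 89.3 ± 13.5 in STZ and 125 ± 16.1 in Control, and the log2 difference of -0.49 ± 0.18 (SE) just passed (adjusted p = 0.0482, limma). It did not pass by the median of ratios (-0.32, adjusted p = 0.209) or without STZ B (0.129), Control A (0.332) or Control B (0.111). At the 138-nt exon, Pml had 10.5, 6.77 and 9.05 RPM in STZ and 12.8 and 12.1 in Control, a log2 difference of -0.50 that did not pass (adjusted p = 0.129). Counting its informative reads alone, the difference was -1.51 (adjusted p = 0.00582, limma). Since more read positions fit an included exon than a skipping junction, that count also depends on Psi and is no separate measure of level. RPM holds the same reads, so where Psi moved, as at the Pml 138-nt and Traf6 exons, it depends on Psi in part too. Traf6 had 25.3, 19.7 and 25.8 RPM in STZ and 16.8 and 20.6 in Control at its exon, with overlapping groups (log2 difference 0.32 ± 0.21 SE, adjusted p = 0.237, limma). With the reads that fit neither isoform counted in, the log2 difference of Traf6 was -0.50 (adjusted p = 0.0617), so its sign hangs on which reads are counted.

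The macrophage genes did not pass. Ctss had 60.5, 27.7 and 61.3 RPM in STZ at its 124-nt form, against 34.4 and 24.0 in Control (log2 difference 0.70 ± 0.35 SE, adjusted p = 0.133, limma). Cd68 had 54.0, 28.4 and 60.8 in STZ at its 434-nt form, against 34.0 and 34.7 in Control (log2 difference 0.40, adjusted p = 0.313). Itgb2 had 11.1, 3.39 and 6.38 in STZ and 2.38 and 5.25 in Control (log2 difference 0.73, adjusted p = 0.24). In all 3 genes STZ B was low and the other STZ libraries higher. Without STZ B, Ctss passed at a log2 difference of 1.07 (adjusted p = 0.0125, limma) and Cd68 at 0.73 (0.0228). Without any other library the difference was 0.44 to 0.95 for Ctss and 0.19 to 0.41 for Cd68. Neither passed without STZ A (adjusted p = 0.174 for Ctss and 0.419 for Cd68) or STZ C (0.303 and 0.642). Ctss also passed by the median of ratios (0.86, adjusted p = 0.0434, limma). Fyb and Ikzf1 were near the limit of counting, at 0.651 to 2.24 RPM in STZ and 0.787 to 1.52 in Control (adjusted p of 0.652 and 0.894).

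**Figure D4:**
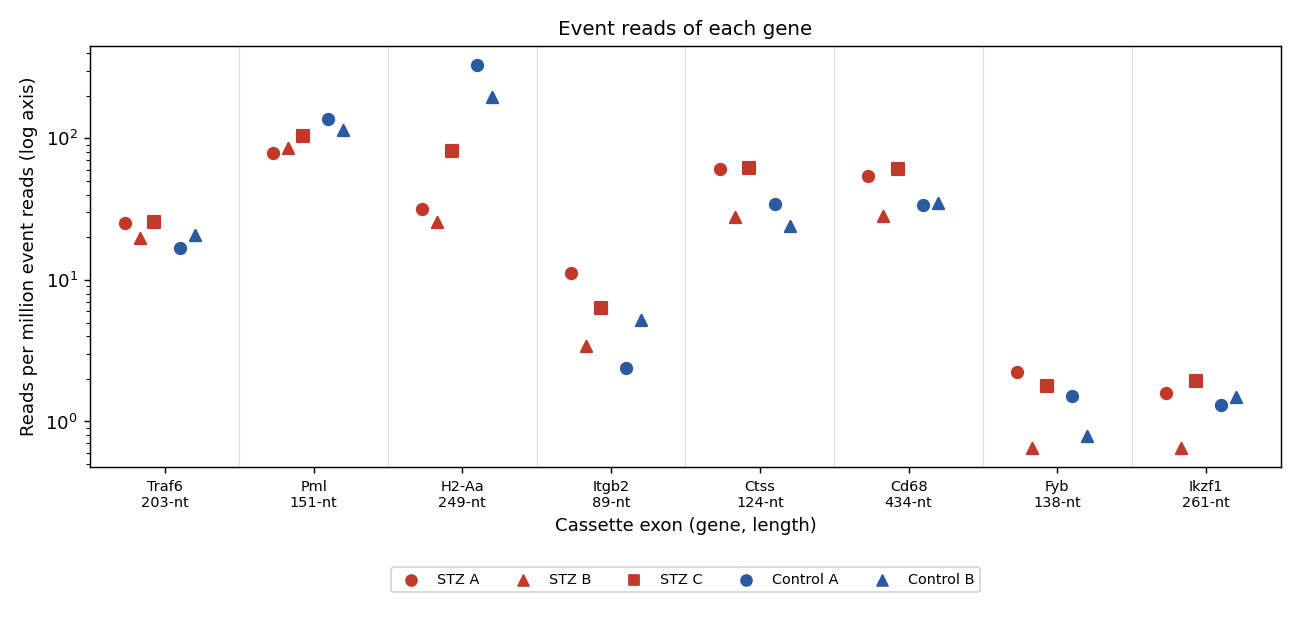
Event reads in RPM (y axis, log scale) of the member genes in each library, STZ left of Control, 1 point a library. H2-Aa is lower in all 3 STZ libraries than in both Control libraries, and STZ B is the lowest STZ point for 7 of the 8 genes tested.

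STZ B had the fewest RPM of the 3 STZ libraries in 10 of 10 leukocyte genes tested and in 7 of the 8 member genes, all but Pml, against 40.1% of the 4087 genes. By the median of ratios the counts were the same, against 24.1% of all genes. Of a list of 70 leukocyte genes, 16 had an event and 13 had 1 in all 6 tables, of which 1 gene was at 0 in at least 1 library. These 13 summed to 205, 103 and 251 RPM in STZ and 480 and 312 in Control. Without H2-Aa and Cd74, left out after their values were seen, the remaining 11 summed to 167, 73.0 and 156 in STZ and 94.7 and 84.5 in Control. The lower sum in STZ came with the 2 class II genes, which their choice by low values largely fixes. Ptprc adds almost nothing to these sums, since nearly all its reads fitted neither isoform. With reads of all 4 classes its 141-nt and 147-nt events were called lower in STZ (adjusted p = 0.0347 and 0.0242, limma). Of 14 cardiomyocyte markers, 4 had events, which summed to 60200 to 66400 RPM in STZ and 128000 to 129000 in Control. Pln, the phospholamban of the calcium pump, carried that gap, with a mean of 33800 RPM in STZ and 102000 in Control. Ttn, the giant sarcomere protein titin, stood at 19900 in STZ and 20000 in Control (log2 difference -0.01, adjusted p = 0.945, limma), and Ldb3 did not pass (-0.14, adjusted p = 0.772). Tnnt2, cardiac troponin T, was higher in STZ (0.53, adjusted p = 0.00544), but at -0.26 with reads of all 4 classes (adjusted p = 0.187), and its call was lost without Control A (0.0885) or Control B (0.076). The 1 endothelial marker with events, Pecam1, stood at 1660 to 2770 RPM in STZ and 640 to 739 in Control. Their part in the results above was not tested.

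Reads that fit neither isoform also differed by gene. They are reads at an event that fit neither its including nor its skipping isoform, such as reads in an intron or of another spliced form. Of the 14 exons present in all tables, 6 had groups that did not overlap in the share of such reads, 4 of them lower in STZ, beside 54.2% and 30.1% of all events. At the Traf6 exon the share was 26.7%, 25.2% and 24.7% in STZ, against 58.0% and 55.9% in Control. At the Pml 138-nt exon it was 48.1%, 54.0% and 54.8% in STZ, against 61.6% and 58.1% in Control. At the Cd68 434-nt exon it ran the other way, with 42.8%, 42.0% and 47.6% in STZ and 23.0% and 20.1% in Control. At the Fyb exon it was 80.5%, 87.5% and 83.6% in STZ, against 92.1% and 94.2% in Control, so that most reads there fitted neither isoform. The median over all events was 59.1% in STZ and 58.9% in Control.

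**Figure D5:**
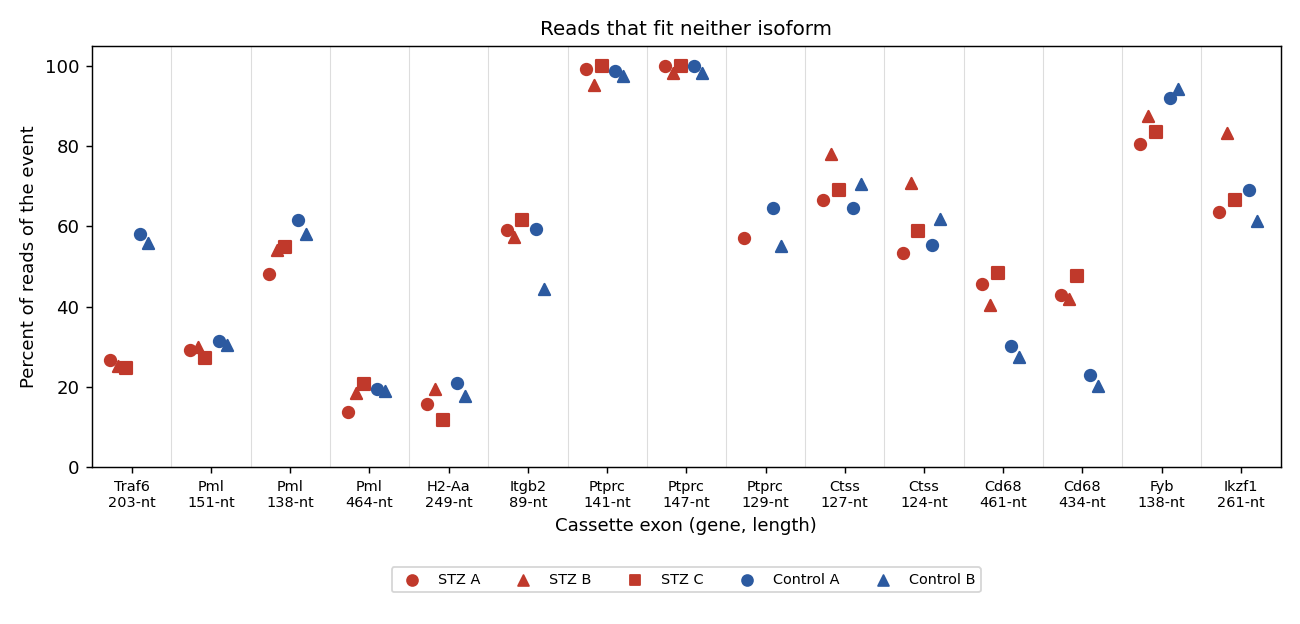
Percent of an event's reads that fit neither isoform (y axis) for the member exons in each library, STZ left of Control, 1 point a library. The share is lower in STZ for Traf6 and higher in STZ for Cd68 434-nt, with no overlap in either.

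Exons of other genes around TRAF6 were read from a list of 62 genes of Toll and interleukin-1 receptor signalling, of which 16 had an event. Of its 22 tested exons outside Traf6, 4 fell and 1 rose (limma, 9 at an unadjusted p under 0.05 and 7 by the read model), beside 10.1% falling and 4.84% rising among all tested exons (32% unadjusted, 21% by the read model), and their median difference was -0.04, beside -0.01 for all exons. The 291-nt exon of Irf7, a transcription factor of the interferon response, had a mean Psi of 0.387 ± 0.0493 in STZ and 0.80 ± 0.0707 in Control (adjusted p = 0.0288, limma). Its 93-nt exon had 0.647 ± 0.0252 in STZ and 0.805 ± 0.0212 in Control (adjusted p = 0.0272). Irf7 thus held both of these falls, and it was counted in this list and not among the interferon response genes below. The 167-nt exon of Tlr4, the endotoxin receptor, had 0.81 ± 0.07 in STZ and 0.99 ± 0 in Control (adjusted p = 0.0158), with 51 skipping reads in STZ and 1 in Control. The 57-nt exon of Tifa, an adaptor that binds TRAF6, had 0.803 ± 0.0351 in STZ and 0.92 ± 0 in Control (adjusted p = 0.0366). It had 31 skipping reads in STZ and 0 in Control, beside 308 and 49 including reads. The exon that rose, chosen after its values were seen, was a 216-nt exon of Tank, a regulator of TRAF signals, at 0.04 ± 0.01 in STZ and 0.01 ± 0 in Control (adjusted p = 0.0276, limma). Both Irf7 calls were lost with any 1 library left out. The Tlr4 exon call was lost without STZ A, Control A or Control B and with Psi clipped at 0.05 (adjusted p = 0.091), and the Tifa call on leaving out each library other than STZ B. The read model did not call the 93-nt Irf7 exon (adjusted p = 0.0507) or the Tifa exon (0.0708). Of these 4 exons that fell, the 291-nt Irf7 exon alone met the rule on difference and Bayes factor in the authors' deposited table.

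In event reads, 5 of the 15 other genes of that list rose and 0 fell (limma), beside 18.8% of all genes higher and 30% lower, 48.8% in all. The median log2 difference was 0.37, beside -0.17 over all genes. Tifa had a mean of 219 RPM in STZ and 35.5 in Control (log2 difference 2.54, adjusted p = 0.000415). Irak2, a kinase that links the receptors to TRAF6, had 39.4 in STZ and 8.18 in Control (2.09, adjusted p = 0.00266). Relb, an NF-kappaB subunit, had 16.6 in STZ and 3.90 in Control (1.88, adjusted p = 0.00362). Tlr4 had 820 in STZ and 441 in Control (0.88, adjusted p = 0.00352), and Tax1bp1, an adaptor of the TRAF6 inhibitor A20, had 328 in STZ and 205 in Control (0.66, adjusted p = 0.0167). Tifa and Irak2 were called under every alternative. With informative reads alone the calls of Tlr4 (0.40, adjusted p = 0.256) and Relb (1.19, adjusted p = 0.102) were lost. The Tlr4 call was also lost without Control B (adjusted p = 0.0533), and that of Tax1bp1 without STZ B (0.0587), Control A (0.109) or Control B (0.105).

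Around PML, 19 of 32 genes of PML bodies and the interferon response had an event. Of 22 tested exons outside Pml, 2 fell and 0 rose (limma, 5 at an unadjusted p under 0.05 and 3 by the read model), against 15% called among all tested exons (32% unadjusted, 21% by the read model). These shares were no higher than those of all exons. The 88-nt exon of Tyk2, a kinase of interferon receptors, had a mean Psi of 0.74 ± 0.0557 in STZ and 0.95 ± 0.0283 in Control (adjusted p = 0.0485, limma). It rested on 8 skipping reads in STZ and 2 in Control, beside 86 and 129 including reads. The Tyk2 call was lost with any 1 library left out. It was not made by the read model (adjusted p = 0.175) or, narrowly, with no minimum of reads (0.0537) or a single prior variance (0.0505). The other exon that fell, of Oas1a, changed by less than 0.10. In event reads of the 18 other genes, 3 were called higher, Sp100, Tmem173 and Sumo3, and 4 lower, among them Oas1a, Mavs and Parp9, around a median of -0.16, beside 48.8% of all genes called. Sp100, a partner of PML in nuclear bodies, had a log2 difference of 1.88 (adjusted p = 0.000478, limma), while Oas1a, an interferon-induced sensor of double-stranded RNA, fell by 1.89 (adjusted p = 0.000304, limma). The direction of Sp100 hung on the reads counted: with reads of all 4 classes it was called lower in STZ (-0.58, adjusted p = 0.0475, limma), and with informative reads alone it was not called (0.34, adjusted p = 0.45). The Tmem173 call was lost with reads of all 4 classes (adjusted p = 0.0915), with no filter on low reads (0.109), with informative reads alone (0.122) and without STZ B (0.13), STZ C (0.108), Control A (0.212) or Control B (0.145). That of Sumo3 was lost without Control A (0.0856) or Control B (0.0851), and that of Parp9 without Control A (0.174) and with informative reads alone (0.0558). Oas1a was called under every alternative. Among the leukocyte list and the antigen presentation list, 3 tested exons each lay outside the 9 genes, and limma called none, with 0 and 1 at an unadjusted p under 0.05 and 0 by the read model.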

How the data were processed

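Exon inclusion was compared between the left ventricles of 3 STZ and 2 Control samples. The submitters' processing notes name CASAVA 1.8.2, TopHat and the genome build mm9. MISO compared single libraries in 6 tables, per the file headers. The authors deposited Psi as a fraction, a posterior mean that also uses reads fitting both isoforms. Read counts in 4 classes, of the unit other, were deposited by the authors as raw counts, per the file headers. The difference column, also of the unit other, was deposited by the authors as Control minus STZ. The Bayes factor was deposited by the authors as a ratio. The 36 other columns of values per library were not used. The MISO version and filters: not given in the sources used here.

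Gene names came from the files or, where these gave none, from a match of exon and intron lengths to GENCODE M21 (same gene for 97.6% of 3348 exons with both). No mm9 genome was used, so sequences come from GRCm38 transcripts and RefSeq promoters.

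Psi was clipped to 0.01 and 0.99 and compared on the logit scale in limma 3.58.1 (R 4.3.3), two-sided, with a prior variance following informative reads, with Benjamini-Hochberg adjustment across the 4769 exons that had at least 10 informative reads in every library. Event reads were tested in limma on log2 values with a pseudocount of 0.5, at a mean of at least 10 reads. The read model was a quasi-binomial fit of informative reads, its dispersion moderated with limma, and its prior was refined after the data were seen. These fits were run in their main settings on simulated data with independent noise in each library, which does not cover the alternatives. Exons of the lists were named where called with a change of at least 0.10, at most 8 a list, and 5 exons were named as most like that of Traf6. The genes and lists were chosen with earlier results of these data known. Intervals are Wilson 95% intervals, and reads carry no molecular identifiers. Values of 1 listed gene are not reported here. Libraries are lettered by the number in their codes. Libraries held 12692236 to 14913419 reads of all classes in STZ and 17154734 to 20963751 in Control. Alternatives changed the read minimum, clipping, weights, prior, model, scaling, read classes and pseudocount, and left out each library.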

Additional observations from a re-analysis of the deposited data

How the results depend on the processing

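No paired analysis was possible because the library codes carry none of the labels' replicate numbers. The 2 calls among the member exons kept their direction under every alternative. The count of called member exons was 1 with at least 20 informative reads in every library, where the Pml 138-nt exon was no longer tested, and 0 to 1 with each library left out. Over all exons the count of 713 became 192 by the rule on the authors' tables and 282 to 466 with each library left out, which leaves fewer samples. Event reads called 2784 events, and 1335 to 3558 with each library left out, lowest without Control A (1335) and Control B (1353). The count of called member genes was 1 with no filter on low reads, 1 with informative reads alone, an alternative chosen after seeing the data, and 1 to 3 with each library left out. With informative reads alone the log2 difference of the Pml 151-nt event turned to 0.06 (adjusted p = 0.883, limma), and the cause was not tested. With reads of all 4 classes, which include those fitting neither isoform, the Ptprc 141-nt and 147-nt events were called lower (log2 -1.22 and -1.43, adjusted p = 0.0347 and 0.0242), the Pml 138-nt event lower (-0.79, adjusted p = 0.0147) and the Ctss 124-nt event higher (0.75, adjusted p = 0.0208). With 2 Control libraries, leaving out 1 leaves a lone library that is assumed to vary like the STZ group. Few informative reads limit Ptprc, Fyb and Ikzf1 most. Psi of their exons present in all tables could be compared only under a lower minimum of such reads or none. No call was made there.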
